A study of Mus musculus with 6 samples.

Results

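The genes described here are the histone genes of the mouse, chosen by symbol alone: linker histone H1 genes, the core histone genes of the H2A, H2B, H3 and H4 families, and the genes of their variants. Of 49997 gene symbols in the deposited count table, 76 met this rule, after 6 symbols marked as pseudogenes were left out. H2ac14, a pseudogene in RefSeq whose symbol has no such mark, was kept. The genes for macroH2A and for the centromeric H3 variant are not among the 76, because their symbols follow another pattern. RNA was sequenced from small pre-B cells purified by flow cytometry from the bone marrow of C57BL/6 mice aged 6 to 12 weeks, 3 libraries from WT mice and 3 from ΔrsCBE mice, whose genotype label is rsCBE. The labels do not say which interval the ΔrsCBE allele lacks; the series title ties the study to chromatin topology set by the DNA-binding protein CTCF and to receptor editing, in which a B-lineage cell rearranges a light chain gene again. The libraries were made from total RNA after removal of ribosomal RNA, so transcripts without a poly(A) tail were counted. The labels do not say whether the replicates came from separate mice, so p-values measure the spread between these libraries, which may be technical. By the sex-linked counts given below, the rsCBE libraries came from mice of both sexes, so their spread is not technical alone.

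Histones package DNA. A nucleosome core holds a pair each of H2A, H2B, H3 and H4, and H1 binds the linker DNA between cores. Most histone mRNA comes from small intronless genes that lie in clusters and are transcribed mainly in S phase, when newly copied DNA needs new nucleosomes. These replication-dependent mRNAs end in a conserved stem-loop in place of a poly(A) tail. The stem-loop is bound by SLBP, which is needed for their processing and translation, and they are degraded when DNA synthesis stops. Variant histones such as H3.3, H2A.Z and H1.0 come from scattered genes, mostly with polyadenylated mRNA, and are deposited in and outside S phase. In the bone marrow, large pre-B cells divide in response to signals from the pre-B cell receptor and interleukin-7, and then become small pre-B cells, most of which have stopped dividing and rearrange their light chain genes.

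Of the 76 genes, 65 were replication-dependent (RefSeq gives each a former symbol of a Hist1 to Hist4 cluster) and 11 were variants. Most of the replication-dependent genes lie in 3 clusters in GRCm38, the build of the submitters' processing notes (mm10). The largest, at chr13:23531044-23934913, holds 31 genes over 404 kb. A neighbouring one at chr13:21715711-22043658 holds 23 genes over 328 kb, and one at chr3:96219885-96270192 holds 10 genes over 50.3 kb. H4f16 (former symbol Hist4h4) lies alone on chromosome 6.

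The stem-loop sets the replication-dependent messages apart, and it is shown here for genes the results turn on. The sense strand of GENCODE M21 transcripts was searched for GGNNCTTTNNAGNNCC. This pattern was found in 135 of 21901 protein-coding genes (0.616%), and in 42 of the 65 replication-dependent genes. Of the other 23, some have transcript models that may stop before it, and no match says only that these letters are not in the model. Of the 11 variant genes, only H2ax, which encodes the DNA-damage variant H2A.X, had a match. Capitals mark the stem-loop, with 5 bases on each side.
H2bc7: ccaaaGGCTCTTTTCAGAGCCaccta
H2ac20: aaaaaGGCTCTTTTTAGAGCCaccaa
H3c2: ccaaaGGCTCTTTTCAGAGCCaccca
H1f3: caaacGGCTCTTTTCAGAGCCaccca
H1f4: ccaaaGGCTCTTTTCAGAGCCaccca
H2bc12: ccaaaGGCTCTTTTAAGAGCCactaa
H4c6: tcaaaGGCCCTTTTCAGGGCCaccca
H4c9: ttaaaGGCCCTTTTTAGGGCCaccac
H2ax: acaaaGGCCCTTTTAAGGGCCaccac
The H1, H2A, H2B and H3 genes with a match, apart from H2ax, all had the stem printed for H2bc7 and differed in 1 base of the loop at most. Of 11 H4 genes with a match, 9 had the stem printed for H4c6, which H2ax also had, and H4c2 and H4c11 had another.

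Promoters, the 250 bases before each start site in the RefSeq table of GRCm38.p6, were available for 69 of the 76 genes. They were searched on both strands for 4 motifs. These were the binding sequence of NF-Y, CCAAT, the core promoter element recognised by the TATA-binding protein, TATAAA, the octamer bound by Oct factors, ATTTGCAT, and the H1 box, AAACACA. The first was present in 37.5% of 27025 promoters of all genes. It was present in all 6 H1, all 17 H2A and all 14 H2B promoters, in 8 of 10 of H3, in 3 of 12 of H4 and in 6 of 10 of the variants. The octamer, in 1.81% of all promoters, was found in 6 H2A, 7 H2B and 1 variant promoter and in none of H1, H3 or H4. The H1 box, in 7.2% of all, was in 5 of 6 H1 promoters, 2 of H2A, 2 of H2B and 1 variant. TATAAA, in 14.3% of all, was in 4 H1, 7 H2A, 7 H2B, 4 H3, 6 H4 and 1 variant promoter. The 130 bases before the start site of 1 gene of each class follow, on the gene's strand. Capitals mark matches to these motifs. H2ac15 stands for the H2A–H2B pairs that share a promoter, H1f4 shows all 3 motifs of the H1 promoters, H2bc7 and H3c2 are called genes, and H4c6 stands for the H4 promoters without CCAAT.
H1f4, chr13:23622559-23622688, minus strand: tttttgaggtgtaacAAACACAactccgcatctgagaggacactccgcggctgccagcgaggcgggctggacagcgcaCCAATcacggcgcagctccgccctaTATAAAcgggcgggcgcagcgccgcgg
H2ac15, chr13:21753913-21754042, minus strand: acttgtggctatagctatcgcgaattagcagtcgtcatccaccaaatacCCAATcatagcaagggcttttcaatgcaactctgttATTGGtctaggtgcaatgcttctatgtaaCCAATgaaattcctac
H2bc7, chr13:23574208-23574337, minus strand: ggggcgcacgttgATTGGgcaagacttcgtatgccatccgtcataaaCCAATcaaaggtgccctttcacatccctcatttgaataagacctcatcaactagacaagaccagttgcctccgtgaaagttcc
H3c2, chr13:23752215-23752344, plus strand: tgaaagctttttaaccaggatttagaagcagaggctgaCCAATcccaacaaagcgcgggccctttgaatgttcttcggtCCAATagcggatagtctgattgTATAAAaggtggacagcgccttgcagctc
H4c6, chr13:23551669-23551798, minus strand: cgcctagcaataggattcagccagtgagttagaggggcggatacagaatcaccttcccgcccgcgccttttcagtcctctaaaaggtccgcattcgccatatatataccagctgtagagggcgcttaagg
A match is a description of the sequence, not evidence that a factor was bound.

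Total counts were 428106 to 1300805 per library, so 3 counts, the limit that a count of 0 allows, are 2.31 to 7.01 CPM (counts as a rate of the library total, which was scaled by TMM factors in every other CPM value). Intervals and this limit cover counting error only. The 10 pre-B cell markers examined, among them Pax5, Rag1 and Il7r, were all measured and summed to between 10169 and 12001 CPM in WT and between 11151 and 11912 CPM in rsCBE. Igll1, Vpreb1 and Myc, which mark dividing pro-B and large pre-B cells, lay at or below 7.08 CPM in every library. The sum of that marker list, 248 to 311 CPM in WT and 279 to 335 CPM in rsCBE, came almost wholly from Bcl2l1. These low values do not show that dividing cells were absent. The 20 genes of G2 and mitosis examined below summed to 6500 to 7313 CPM in WT and 2674 to 4340 CPM in rsCBE. Mature B cell markers summed to 303 to 392 CPM in WT and 286 to 370 CPM in rsCBE, and plasma cell markers to 95.6 to 117 and 116 to 143 CPM. The mature sum came mainly from Cd22, Ms4a1 and Ccr7, while Ighd had no count and Cr2 and Fcer2a stayed at or below 4.78 CPM. The plasma cell sum came mainly from Sdc1 and Xbp1, while Tnfrsf17 had no count and Jchain had 1 count over all libraries. Of the erythroid markers, 7 of 9 had no count and the sum reached 1.01 CPM at most. The myeloid markers, of which Elane, S100a8 and Ly6g had no count, summed to 0 to 6.32 CPM in WT and 6.04 to 14.2 CPM in rsCBE. Lyz2 (2, 4 and 2 counts) and S100a9 (2, 1 and 3 counts) were found in every rsCBE library and in no WT library. Camp, Ngp, Cd14 and Mpo had at most 3 counts each, all in rsCBE, and Csf1r had 4, 0 and 2 counts in WT and 1, 1 and 2 in rsCBE. Of the T and NK cell markers, 8 of 9 had no count. The part of these traces in the results was not tested. The libraries were not matched for sex: Xist had 1603 and 1430 counts in rsCBE replicates 2 and 3 and at most 1 elsewhere, and Y-linked genes had counts only in the WT libraries and in rsCBE replicate 1.

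Replication-dependent histone transcripts were lower in rsCBE small pre-B cells than in WT cells, in all 4 core classes. Summed over all 65 genes they came to 5377, 5325 and 6015 CPM in the WT libraries and 3125, 4757 and 3642 CPM in the rsCBE libraries. All 3 rsCBE libraries lay below all 3 WT libraries, and rsCBE replicate 2 was the closest to WT. The mean was 5572 ± 384 CPM in WT and 3842 ± 834 CPM in rsCBE (SD, n = 3 each), 31.1% lower. As a share of all counts these are 0.546%, 0.521% and 0.599% in WT and 0.316%, 0.474% and 0.366% in rsCBE; the lowest WT share has a 95% Wilson interval of 0.500% to 0.543% and the highest rsCBE share one of 0.461% to 0.488%. In bulk samples, fewer cells of a type and less RNA per cell cannot be told apart. No test was made of such sums, since the genes were chosen with results of these data known.

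The class sums of the genotypes were apart in the core classes and overlapped in H1. H2A genes summed to 1091, 1240 and 1525 CPM in WT and 648, 847 and 592 CPM in rsCBE, 45.9% lower on average. H2B genes summed to 760, 1204 and 893 CPM against 538, 532 and 461 CPM, 46.4% lower. In neither class did the genotypes overlap. H3 genes summed to 275, 263 and 324 CPM against 155, 194 and 174 CPM, 39.2% lower, and H4 genes to 327, 370 and 435 CPM against 215, 221 and 205 CPM, 43.3% lower. These classes did not overlap either, and H4 varied little between the rsCBE libraries. H1 genes summed to 2924, 2248 and 2839 CPM in WT and 1570, 2962 and 2209 CPM in rsCBE. Here rsCBE replicate 2 lay above every WT library, so the genotypes overlapped. The variant genes summed to 1147, 1027 and 1070 CPM in WT and 1153, 1104 and 1068 CPM in rsCBE, which also overlapped.

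**Figure D1:**
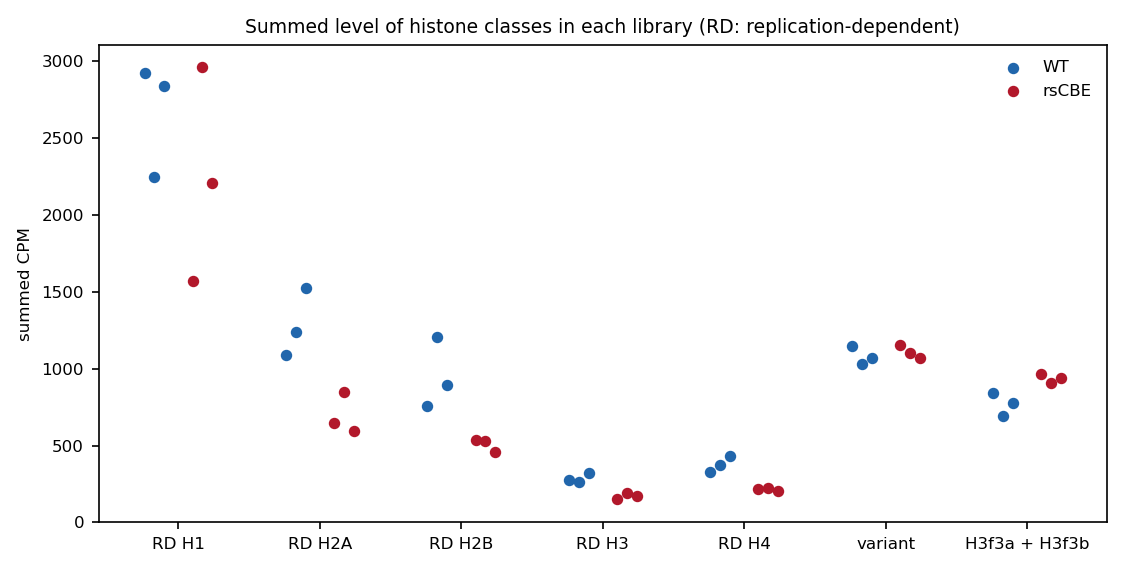
Summed level of each histone class (y axis, CPM) in the 3 WT (blue) and 3 rsCBE (red) libraries, 1 point per library. In the 4 core classes all rsCBE points lie below all WT points, in H1 and in the variants they overlap, and the sum of H3f3a and H3f3b lies between 905 and 965 CPM in rsCBE against 690 to 842 CPM in WT.

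Single genes were tested with edgeR (quasi-likelihood F test), and the Benjamini-Hochberg adjustment covered the 7792 genes that passed the count filter; an adjusted p-value under 0.05 is a call. Log2 fold changes are rsCBE relative to WT. Of the 65 replication-dependent genes, 8 had no count in any library, 15 had counts below the filter and 42 were tested. Of these 42, 11 fell in rsCBE and 0 rose, while of all tested genes 1.49% fell, 0.205% rose and 1.69% were called in either direction. In all, 40 of the 42 had a negative log2 fold change, against 48.2% of all tested genes, and 30 of the 42 had an unadjusted p-value under 0.05, all with lower levels in rsCBE. Of all 7792 tested genes, 798 had such a p-value, 469 of them with lower levels. For 26 of the 42 (61.9%) every rsCBE library lay below every WT library, against 8.95% of all tested genes, and for none did every rsCBE library lie above, against 7.24%. The median log2 fold change of the 42 was -0.78, a 1.72-fold lower level, and that of all tested genes was 0.01. The filter takes a gene through its higher group, so these counts speak for the genes measured well enough and not for all 65. Among the 5 tested variant genes, 1 fell and 0 rose. Their median log2 fold change was -0.25, and it turned to 0.30 with sex as a covariate, 0.0014 without WT replicate 1 and 0.098 without rsCBE replicate 3.

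The number of calls depended on single libraries. Without WT replicate 3, the library with the most counts, 2 of the 11 replication-dependent genes, H2bc7 and H2ac20, were still called. Without rsCBE replicate 3 there were 5, H2bc7, H2ac20, H2ac10, H2bc11 and H4c6. Over all genes the calls went from 132 to 59 in both cases. With sex as a covariate, a fit in which the genotype effect rests on rsCBE replicate 1, 6 replication-dependent genes were called, 4 of them among the 11 (H1f1, H2ac10, H2bc11 and H2bc7), with H1f5 and H2bc14 as the other two. H2ac20 lost its call without rsCBE replicate 1 (adjusted p = 0.0825, edgeR), as did H1f1 (0.108) and H2bc15 (0.0817) without WT replicate 1. H2bc7 and H2ax were called under all 15 alternatives.

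**Figure D2:**
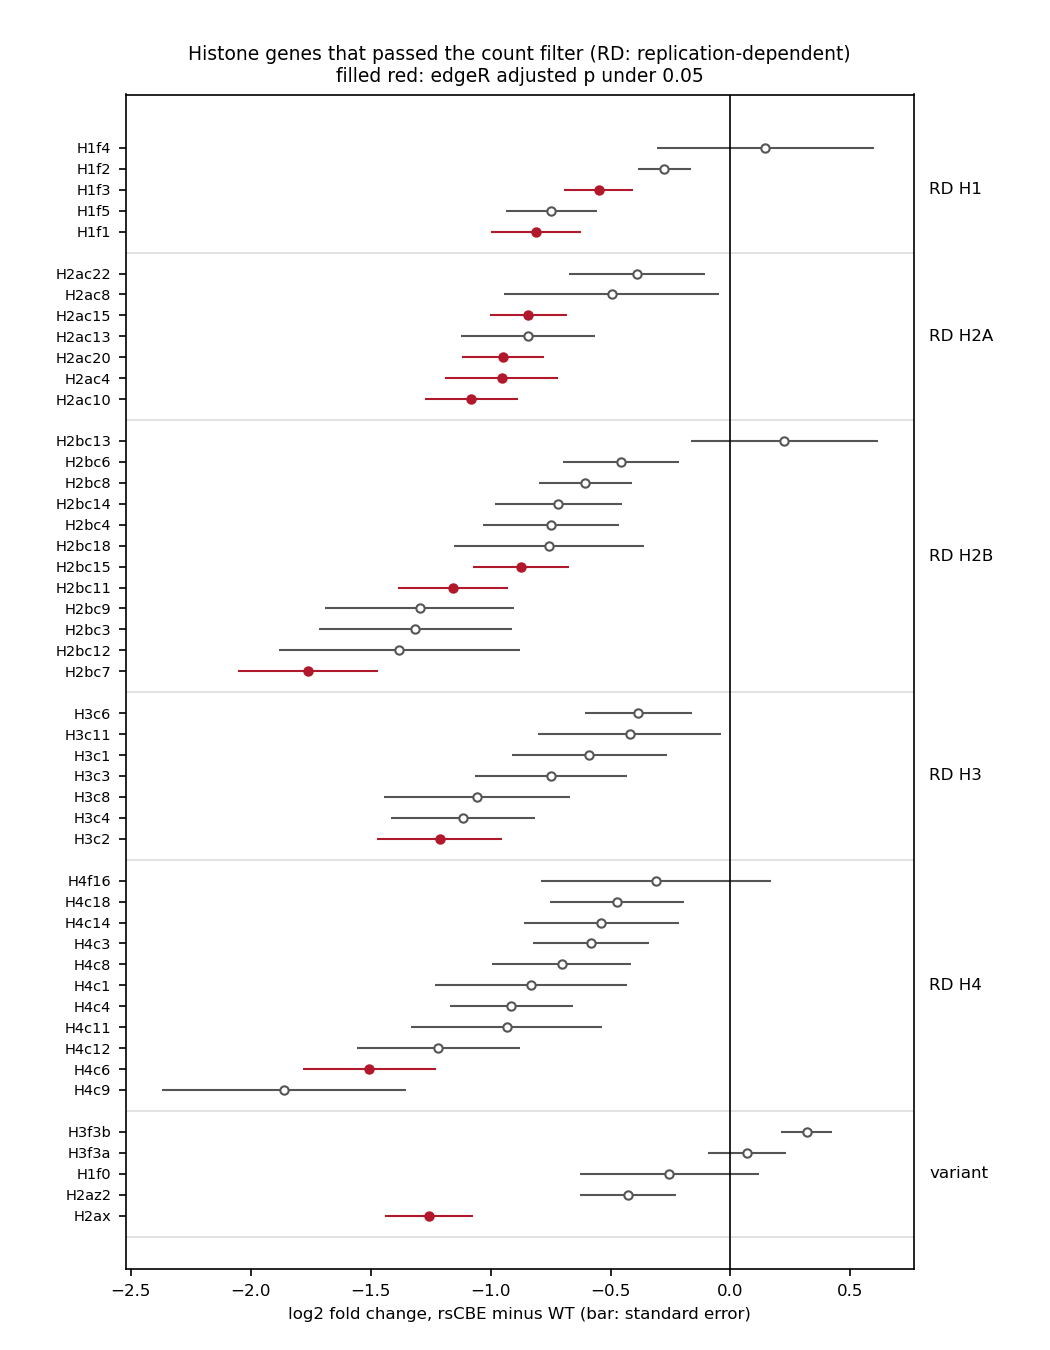
Log2 fold change of each of the 47 histone genes tested (x axis, rsCBE minus WT; bars, standard error), grouped by class, with filled red points for an adjusted p-value under 0.05. Nearly all replication-dependent genes lie left of 0, with H1f4 and H2bc13 right of it, and among the variants H2ax lies at -1.26 and H3f3b at 0.32.

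Among the core histones, H2B had the widest range. H2bc7 (former symbol Hist1h2bf, chr13:23573760-23574207), whose stem-loop and promoter are printed above, had 55.3, 59.7 and 52.5 CPM in WT and 8.26, 20.1 and 19.7 CPM in rsCBE. The genotypes were far apart, with rsCBE replicate 1 lowest. It fell by 1.76 on the log2 scale (SE 0.29, adjusted p = 0.000812, edgeR), from 55.8 ± 3.64 to 16.02 ± 6.72 CPM (SD, n = 3 each). H2bc11 (chr13:22043198-22043658), at the far end of the smaller chromosome 13 cluster, had 74.2, 74.1 and 86.5 CPM in WT and 23.6, 46.3 and 35.6 CPM in rsCBE. It fell by 1.16 (SE 0.23, adjusted p = 0.00470, edgeR), with no overlap. H2bc15 (chr13:21754076-21754553) had 88.5, 74.1 and 81.9 CPM against 43.7, 49.3 and 40.6 CPM. It fell by 0.87 (SE 0.20, adjusted p = 0.0161, edgeR; 0.112 by DESeq2), again with no overlap.

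The 9 other H2B genes tested had no call by edgeR. H2bc12 had 39.5, 110 and 83.4 CPM in WT and 53.1, 20.1 and 14.7 CPM in rsCBE, and H2bc3 had 47.4, 115 and 74.1 CPM against 53.1, 18.1 and 20.9 CPM. In both genes rsCBE replicate 1 exceeded WT replicate 1 while the other libraries of the genotypes were well apart. Their log2 fold changes were -1.38 (adjusted p = 0.379, edgeR) and -1.31 (adjusted p = 0.201, edgeR), and without rsCBE replicate 1 they were -2.10 and -1.95 with adjusted p-values of 0.00091 and 0.00051. With sex as a covariate they were -0.52 and -0.50 (adjusted p = 0.673 and 0.648, edgeR), and DESeq2 called H2bc3 (adjusted p = 0.0485). H2bc18, in the chromosome 3 cluster, had 197, 468 and 210 CPM in WT and 190, 169 and 134 CPM in rsCBE. WT replicate 2 stood apart there, and the log2 fold change of -0.76 had an adjusted p-value of 0.629 (edgeR). H2bc9 had a log2 fold change of -1.30, H2bc4 of -0.75, H2bc14 of -0.72, H2bc8 of -0.60 and H2bc6 of -0.46. H2bc13, with 14.2, 16.7 and 11.6 CPM in WT and 11.8, 21.1 and 13.5 CPM in rsCBE, had a log2 fold change of 0.22 (SE 0.39), which became -0.09 without rsCBE replicate 2 and -0.18 with sex as a covariate.

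In H2A, 4 of 7 tested genes fell, and the other 3 had negative log2 fold changes. H2ac20 (former symbol Hist2h2ac, chr3:96220413-96220880), the only called gene of the chromosome 3 cluster, had 415, 566 and 565 CPM in WT and 261, 341 and 195 CPM in rsCBE. It fell by 0.95 on the log2 scale (SE 0.17, adjusted p = 0.00625, edgeR), from 516 ± 86.8 to 266 ± 73.0 CPM (SD, n = 3 each). H2ac15 (chr13:21753377-21753912) had 381, 323 and 542 CPM against 209, 279 and 220 CPM and fell by 0.84 (SE 0.16, adjusted p = 0.00602, edgeR). H2ac10 (chr13:23533875-23534378) had 133, 151 and 215 CPM against 70.8, 104 and 66.4 CPM and fell by 1.08 (SE 0.20, adjusted p = 0.00216, edgeR). H2ac4 (chr13:23751088-23751592) had 52.1, 74.1 and 63.3 CPM against 40.1, 26.2 and 30.7 CPM and fell by 0.95 (SE 0.24, adjusted p = 0.0312, edgeR). In these 4 genes no rsCBE library reached the lowest WT library. DESeq2 did not call H2ac4 (adjusted p = 0.191), and leaving out any of WT replicates 2 and 3 and rsCBE replicates 2 and 3 ended its call. H2ac13 had a log2 fold change of -0.84 with no overlap (adjusted p = 0.164, edgeR), H2ac8 of -0.50 and H2ac22 of -0.39, both with overlap.

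H3c2 (former symbol Hist1h3b, chr13:23752345-23752840) was the only H3 gene called. It had 47.4, 45.4 and 63.3 CPM in WT and 24.8, 27.2 and 17.2 CPM in rsCBE, and fell by 1.21 (SE 0.26, adjusted p = 0.00887, edgeR; 0.0877 by DESeq2). H3c4 had 52.1, 26.3 and 43.2 CPM in WT and 17.7, 16.1 and 24.6 CPM in rsCBE. The genotypes did not overlap, but its log2 fold change of -1.12 missed the threshold (adjusted p = 0.0563, edgeR). H3c8 (-1.06) and H3c6 (-0.38) had no overlap and no call, and H3c3 (-0.75), H3c1 (-0.59) and H3c11 (-0.42) overlapped. The value of H3c3 went to 0.00 without WT replicate 3.

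All 11 tested H4 genes had negative log2 fold changes, and 1 was called. H4c6 (former symbol Hist1h4f, chr13:23551286-23551668) had 44.2, 40.6 and 55.6 CPM in WT and 16.5, 17.1 and 17.2 CPM in rsCBE. The rsCBE libraries were nearly equal, and the gene fell by 1.51 (SE 0.28, adjusted p = 0.00216, edgeR), from 46.8 ± 7.82 to 16.9 ± 0.372 CPM (SD, n = 3 each). H4c9 had 23.7, 14.3 and 16.2 CPM in WT and 3.54, 9.06 and 1.23 CPM in rsCBE. Its log2 fold change of -1.86 was the lowest of all histone genes tested, but counts were few and the adjusted p-value was 0.0627 (edgeR). H4c12 (-1.22), H4c11 (-0.93), H4c1 (-0.83), H4c3 (-0.58), H4c14 (-0.54) and H4c18 (-0.47) had no overlap and no call. H4c4 (-0.91) and H4c8 (-0.70) overlapped, as did H4f16, the H4 gene outside the clusters, at -0.31 (SE 0.48), which became 0.02 without rsCBE replicate 2 and 0.19 with sex as a covariate.

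**Figure D3:**
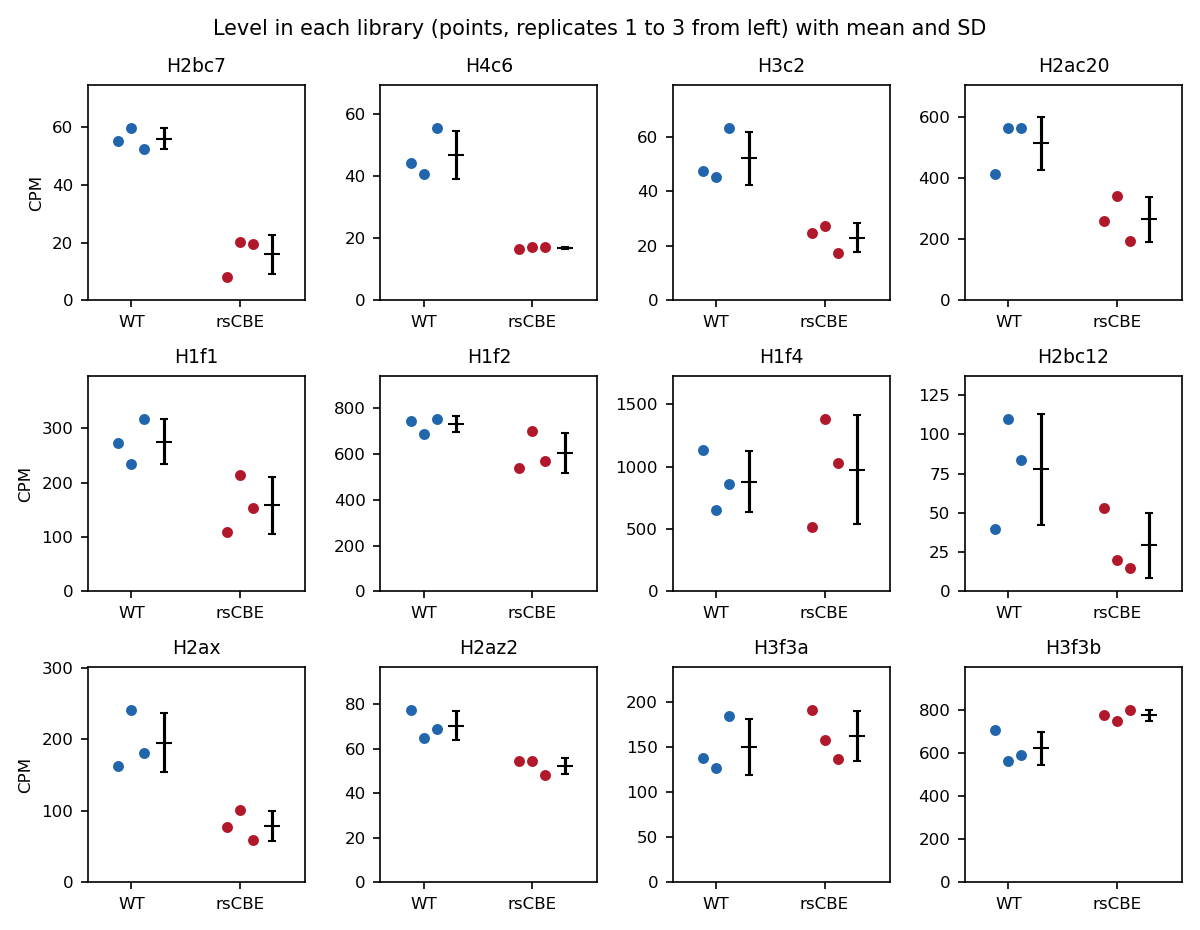
Level of 12 histone genes in each library (y axes, CPM, each from 0; points, replicates 1 to 3 from left; bars, mean and SD, n = 3). WT (blue) and rsCBE (red) are apart in H2bc7, H4c6, H3c2, H2ac20, H1f1, H2ax, H2az2 and H3f3b, and they overlap in H1f2, H1f4, H2bc12 and H3f3a; of the 12 genes, only H2bc7, H4c6, H3c2, H2ac20, H1f1 and H2ax were called.

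Of the 5 replication-dependent linker histone genes tested, 2 fell. H1f1 (former symbol Hist1h1a, chr13:23763668-23764412) had 273, 234 and 317 CPM in WT and 109, 213 and 152 CPM in rsCBE and fell by 0.81 (SE 0.19, adjusted p = 0.0324, edgeR), with no overlap. H1f3 (chr13:23555032-23555807) had 433, 354 and 500 CPM against 258, 368 and 261 CPM and fell by 0.55 (SE 0.14, adjusted p = 0.0483, edgeR). In H1f3 rsCBE replicate 2 lay above WT replicate 2, and its call was lost in DESeq2 (adjusted p = 0.108), with library size alone as the scaling (adjusted p = 0.0503, edgeR) and when any of 4 libraries was left out. H1f5, with 333, 320 and 405 CPM against 149, 290 and 195 CPM, had no overlap and a log2 fold change of -0.75 (SE 0.19, adjusted p = 0.0659, edgeR; 0.0257 by DESeq2).

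H1f2 and H1f4 gave most of the H1 counts. H1f2 had 747, 690 and 755 CPM in WT and 539, 702 and 570 CPM in rsCBE, a log2 fold change of -0.28 (SE 0.11, adjusted p = 0.324, edgeR), with rsCBE replicate 2 inside the WT range. H1f4 (former symbol Hist1h1e, chr13:23621777-23622558) had 1136, 650 and 860 CPM in WT and 516, 1386 and 1031 CPM in rsCBE. Both the lowest and the highest library were rsCBE. Its log2 fold change was 0.15 (SE 0.45, adjusted p = 0.968, edgeR), and its 95% interval ran from -1.08 to 1.37, which holds the log2 fold changes of H1f1 and H1f3. The value was -0.19 without rsCBE replicate 2, -0.01 without WT replicate 2 and -0.78 with sex as a covariate. H1f4 made up 38.9%, 28.9% and 30.3% of the counts of H1f1 to H1f5 in WT, and 32.8%, 46.8% and 46.7% in rsCBE. The 2 libraries with the highest share are those with Xist counts; the part of sex in this was not tested. Without H1f4 the replication-dependent genes summed to 4691 ± 458 CPM in WT and 2864 ± 439 CPM in rsCBE (SD, n = 3 each), 38.9% lower, and the 3 genes H1f1, H1f3 and H1f5 to 37.0% less in rsCBE with no overlap. In GENCODE M21 a transcript of H2bc6 shares exon bases with H1f4 on the same strand, so reads may be split between these genes, depending on the annotation used for counting.

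The 11 variant genes include the gene with the lowest adjusted p-value of all 76. H2ax (former symbol H2afx, chr9:44334715-44336077), whose product is phosphorylated at DNA breaks, had 163, 241 and 181 CPM in WT and 77.9, 101 and 59.0 CPM in rsCBE. No rsCBE library came near the WT range. It fell by 1.26 (SE 0.18, adjusted p = 0.000182, edgeR), from 195 ± 41.1 to 79.2 ± 20.9 CPM (SD, n = 3 each). H2ax is the variant gene whose transcript holds the stem-loop printed above, and it is known to make a polyadenylated mRNA as well; the table does not separate the forms. It gave 12.97%, 16.3% and 10.6% of the counts of H2ax and the replication-dependent H2A genes together in WT, and 10.7%, 10.6% and 9.06% in rsCBE, ranges that overlapped.

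The H3.3 genes H3f3a and H3f3b, which encode the same protein, lay on the other side of 0. H3f3b had 704, 564 and 592 CPM in WT and 774, 747 and 800 CPM in rsCBE, so every rsCBE library exceeded every WT library. Its log2 fold change of 0.32 (SE 0.11, 95% interval 0.10 to 0.54) was not called (adjusted p = 0.173, edgeR). H3f3a had 137, 127 and 185 CPM against 191, 158 and 136 CPM, which overlapped, and a log2 fold change of 0.07 (SE 0.16, adjusted p = 0.950, edgeR) that became -0.01 without WT replicate 2 and -0.07 without rsCBE replicate 1. Replication-dependent H3 genes gave 24.6%, 27.6% and 29.4% of all H3 counts in WT and 13.8%, 17.7% and 15.7% in rsCBE. The shares did not overlap; the long H3.3 transcripts weigh more in such counts than the short cluster transcripts.

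H2az2, 1 of 2 genes for H2A.Z, had 77.4, 64.5 and 68.7 CPM in WT and 54.3, 54.3 and 47.9 CPM in rsCBE. The genotypes did not overlap, and the log2 fold change of -0.43 (SE 0.20) was not called (adjusted p = 0.448, edgeR). H2az1 had 8, 4 and 11 counts in WT and 10, 17 and 3 counts in rsCBE, below the filter. H1f0, the gene for H1.0, which accumulates in cells that have stopped dividing, had 39.5, 21.5 and 21.6 CPM in WT and 37.8, 18.1 and 12.3 CPM in rsCBE. These overlapped, and the log2 fold change of -0.25 (SE 0.37) became 0.07 without WT replicate 1, 0.02 without rsCBE replicate 3 and 0.48 with sex as a covariate. H1f10 had 7, 0 and 16 counts in WT and 5, 8 and 7 in rsCBE.

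Other genes below the filter with at least 5 counts per library on average were H2ac6, H2ac12, H2bc21, H3c7 and H3c13. H3c7 had 11, 4 and 15 counts in WT and 3, 4 and 7 in rsCBE, and H2ac6 had 7, 5 and 14 against 0, 9 and 6. H2bc21 had 5 counts in each WT library and 6, 5 and 4 in rsCBE, H2ac12 had 3, 4 and 14 against 5, 6 and 0, and H3c13 had 4, 4 and 7 against 1, 15 and 0. These genes were not tested in the filtered fit. In CPM, every rsCBE library lay below every WT library in H3c7 (17.4, 9.56 and 11.6 against 3.54, 4.03 and 8.60) and in H2ac6 (11.1, 11.9 and 10.8 against 0, 9.06 and 7.37), where 1 count is a large part of a value. H2ac1 and H2bc1, known from testis, H1f7, known from spermatids, and H1f8, known from oocytes, had no count in any library, which allows up to 7.01 CPM in the shallowest.

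Per length, taken as the RefSeq span for the cluster genes, H1f4 and H2ac20 had the highest levels in WT, at 1127 ± 312 and 1102 ± 186 CPM per kb of transcript (SD, n = 3). H1f2 followed at 1008 ± 48.7, H2ac15 at 774 ± 212 and H2bc18 at 592 ± 310 CPM per kb. The first 3 do not differ beyond their spread, and the place of the H1 genes depends on the gene model: the GENCODE transcript of H1f4 has 1930 bases against a span of 782, that of H1f2 1560 against 725 and that of H2ac20 520 against 468. H1f3, H1f5, H1f1 and H2ac10 had 552, 445, 369 and 330 CPM per kb and H3f3b, over its GENCODE exons, 208 CPM per kb. In rsCBE the level of H1f4 was 1250 ± 560 and that of H2ac20 568 ± 156 CPM per kb.

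Near-identical copies limit how counts can be given to single cluster genes. Transcripts were cut into windows of 50 bases, and the share of windows also found in the transcript of another gene was counted. It was over 50% in 32 replication-dependent genes, of which 17 were tested and 7 called (median log2 fold change -0.87). It was 10% to 50% in 24 genes, of which 19 were tested and 2 called (median -0.75). It was under 10% in 9, of which 6 were tested and 2 called (median -0.54). All these calls were falls, and of all tested genes 1.49% fell. The 6 tested genes under 10% were H1f1, H1f2, H1f3, H1f5, H4c14 and H4f16, so these groups differ in histone class as well. H2bc15 shared 86.4% of its windows, H2ac10 79.7%, H2bc7 65.8%, H3c2 60.4%, H2ac15 52.3%, H4c6 39.5% and H2ac20 38.6%, so the division of reads among such genes is uncertain. H1f1 and H1f5 shared none, H1f3 shared 2.25% and H2ax 6.14%. Among the replication-dependent genes with no count, H2ac19, H2bc23, H2ac23, H2ac24, H2ac14 and H4c17 shared 89.8% to 100% of their windows. H2bc1 and H2ac1 shared 38.2% and 2.35%. Whether reads of such genes were lost in counting was not tested, so no count there does not show that a gene was silent. H2ac4, H2ac10, H2ac15, H2ac20 and H2ax also overlap a gene on the opposite strand in GENCODE M21 that is no row of the count table; whether counting used the strand is not given in the sources used here. Of the replication-dependent genes with the stem-loop in their transcript model, 28 were tested and 7 called (median log2 fold change -0.73), and of those without it 14 were tested and 4 called (median -0.82).

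Called genes lay in all 3 clusters. In the larger chromosome 13 cluster 24 of 31 genes were tested, 7 fell (29.2%) and the median log2 fold change was -0.78. In the smaller one 14 of 23 were tested, 3 fell (21.4%) and the median was -0.84. In the chromosome 3 cluster 3 of 10 were tested, 1 fell (33.3%) and the median was -0.76. Of all tested genes 1.49% fell. The calls of the larger cluster lay in 2 stretches, H2ac10 to H2bc7 and H2ac4 to H1f1. The tested genes between them ran from H2bc3 at -1.31 and H3c4 at -1.12 to H1f2 at -0.28 and H1f4 at 0.15. Inside the stretches H3c8, H2bc9, H3c6, H2ac8, H2bc8, H4c1 and H3c1 were tested and not called, so the stretches rest on the threshold. Within the first stretch, H2bc7 and its neighbour H2bc8 had log2 fold changes of -1.76 and -0.60.

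**Figure D4:**
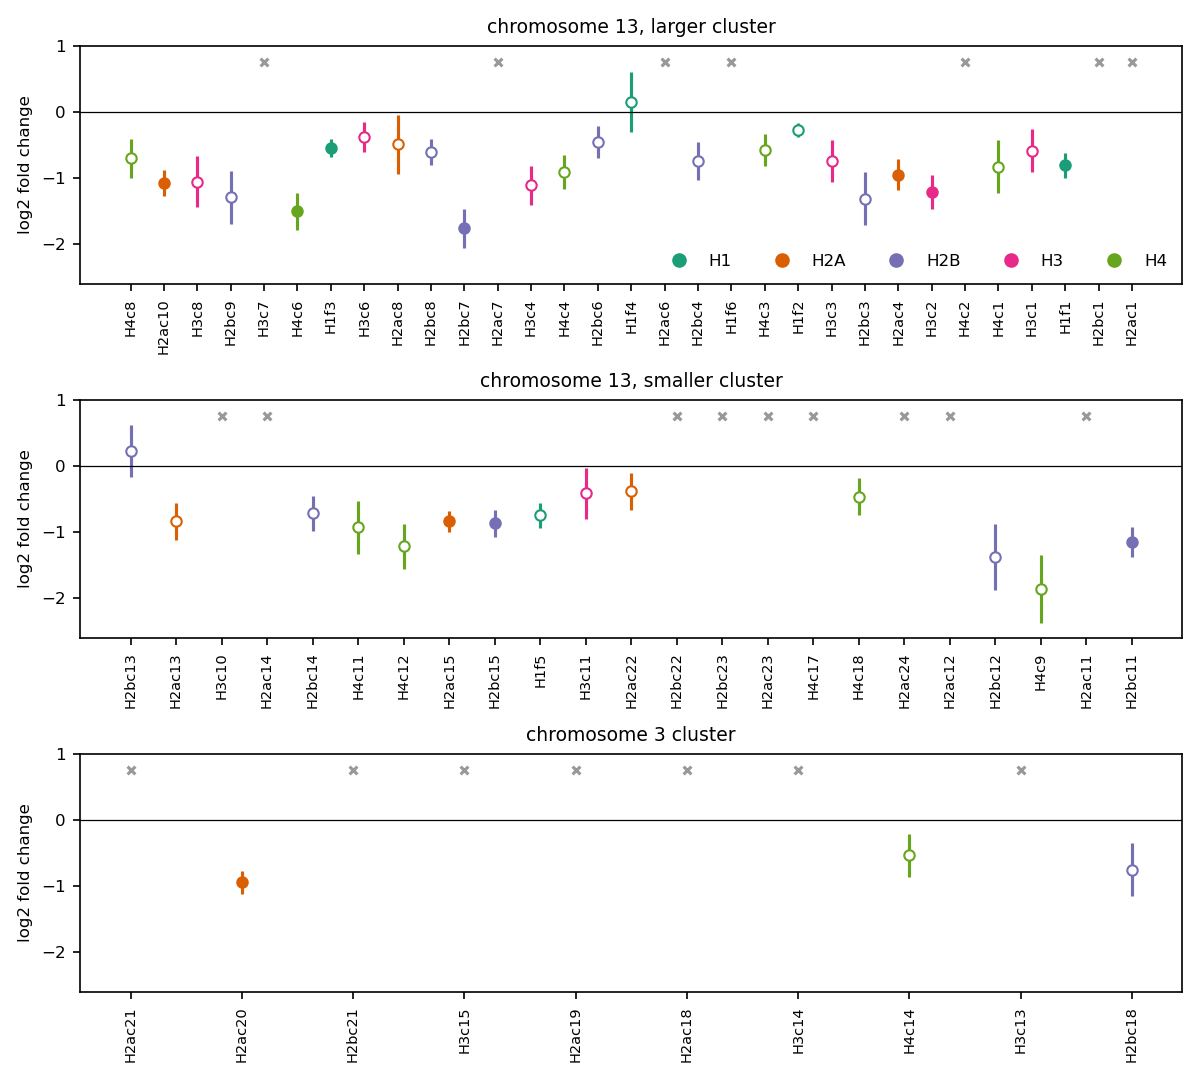
Log2 fold change (y axis, rsCBE minus WT; bars, standard error) of the genes of each cluster in their order along the chromosome, evenly spaced and coloured by class; filled points had an adjusted p-value under 0.05 and grey crosses mark genes not tested. Points below 0 run through all 3 clusters, and H1f4 and H2bc13 are the points above 0.

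H2A and H2B genes often share a promoter. With start sites at most 500 bases apart on opposite strands, 12 such pairs were found; in 3 both genes were tested, in 7 only 1 and in 2 neither. In the pair of H2ac15 and H2bc15, 163 bases apart, the log2 fold changes were -0.84 and -0.87. In that of H2ac8 and H2bc8, 179 bases apart, they were -0.50 and -0.60, and in that of H2ac13 and H2bc13, 228 bases apart, -0.84 and 0.22. The genes of a pair could differ widely in counts. Over all libraries H2ac20 had 1951 counts and its partner H2bc21 had 30, and H2bc7 had 171 and its partner H2ac7 had 5. H2bc7 and H2ac7 shared 65.8% and 67.1% of their 50-base windows with other genes, H2ac20 shared 38.6% and H2bc21 none. The division of reads is therefore uncertain, above all for H2bc7 and H2ac7.

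Genes that act on histone genes and their mRNA were taken from a list of 22, of which 17 were tested. By edgeR 0 were called, 3 had an unadjusted p-value under 0.05 (798 of all 7792 tested genes did), and DESeq2 called 0. Their median log2 fold change was -0.15. Slbp, which encodes the stem-loop binding protein, had 67.9, 105 and 73.4 CPM in WT and 57.8, 65.4 and 31.9 CPM in rsCBE. No rsCBE library reached the WT range, and the log2 fold change of -0.60 had an adjusted p-value of 0.306 (edgeR). Npat, a coactivator of replication-dependent histone transcription and target of cyclin E and Cdk2, had 53.7, 64.5 and 58.7 CPM against 48.4, 55.4 and 54.1 CPM, which overlapped (log2 fold change -0.15, adjusted p = 0.882, edgeR).

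Of 17 genes for the deposition of newly made histones behind the replication fork, 16 were tested and 1 fell. That is 6.25%, against 1.49% of all tested genes, and the median log2 fold change was -0.32. The called gene was Rbbp4, a subunit of the chromatin assembly factor CAF-1 and of other chromatin complexes. It had 332, 375 and 339 CPM in WT and 221, 208 and 210 CPM in rsCBE and fell by 0.70 (SE 0.12, adjusted p = 0.00111, edgeR). Without rsCBE replicate 2, 3 genes of this list were called. Of 18 genes for the deposition of variants, 15 were tested and 3 fell (20%), with a median of 0.01. Dek, an H3.3 chaperone, fell by 0.53 (adjusted p = 0.0217, edgeR) and Anp32e, which removes H2A.Z from chromatin, by 0.54 (adjusted p = 0.0307, edgeR). The call of Anp32e was lost with sex as a covariate (adjusted p = 0.325, edgeR) and by DESeq2 (0.0524). Leaving out WT replicate 1, WT replicate 2 or rsCBE replicate 3 left 1 call in this list, and the call of Dek held only when rsCBE replicate 2 was the library left out (adjusted p = 0.0674 to 0.187 otherwise, edgeR). Cenpa, the centromeric H3 variant, had a log2 fold change of -0.82 (adjusted p = 0.0937, edgeR). Hira, the chaperone that deposits H3.3 outside S phase, had 147, 115 and 132 CPM in WT and 147, 137 and 116 CPM in rsCBE. It overlapped fully and its log2 fold change of 0.01 was slightly negative without WT replicate 2, rsCBE replicate 1 or rsCBE replicate 2.

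Markers of the cell cycle moved with the histone genes. Of 20 S phase genes, 18 were tested, 2 fell (11.1%, against 1.49% of all tested genes) and 0 rose. Their median log2 fold change was -0.48. Without WT replicate 3 or rsCBE replicate 3 there were 0 S phase calls, and without rsCBE replicate 2 there were 5. Of 20 genes of G2 and mitosis, 19 were tested, 17 fell and 0 rose, and the median was -1.19; without WT replicate 3 or rsCBE replicate 3, 11 were called. The S phase genes summed to 1392 to 1494 CPM in WT and 790 to 1157 CPM in rsCBE, 30.9% lower on average. The G2 and mitosis genes summed to 6500 to 7313 CPM in WT and 2674 to 4340 CPM in rsCBE, 52.7% lower. All replication-dependent histone genes together were 31.1% lower. Without the H1 genes the replication-dependent sum was 45.1% lower, while the sum of H1f2 and H1f4 was 1.94% lower and overlapped. The mean deviation of log2 CPM over the tested replication-dependent genes was -0.47, -0.24 and -0.41 in rsCBE replicates 1 to 3; for the S phase genes it was -0.25, 0.04 and -0.54, and for the G2 and mitosis genes -0.73, -0.23 and -0.84. In all 3 lists rsCBE replicate 2 lay closest to WT. The part of the share of cycling cells in the histone differences was not tested.

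**Figure D5:**
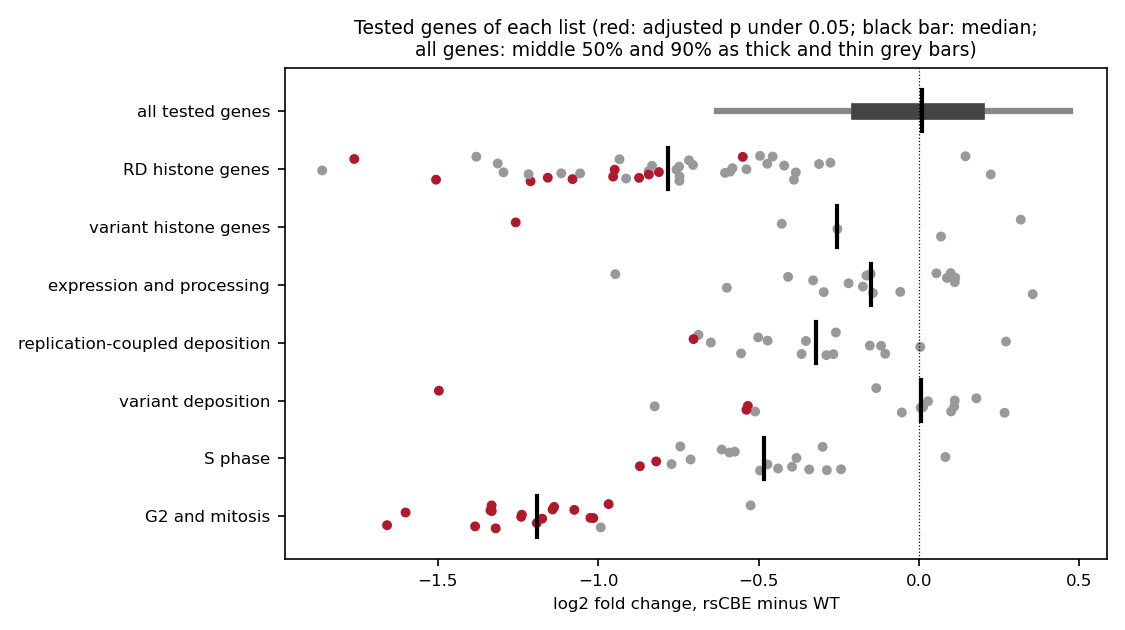
Log2 fold changes (x axis, rsCBE minus WT) of the tested genes of each list, 1 point per gene, red for an adjusted p-value under 0.05, with the list's median as a black bar; for all tested genes the thick and thin bars span the middle 50% and 90%. The medians are -0.78 for the replication-dependent (RD) histone genes, -0.48 for S phase and -1.19 for G2 and mitosis, against 0.01 for all tested genes.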

How the data were processed

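The deposited table holds raw whole-number read counts per gene symbol, 1 column per library and not normalized. Per the submitters' processing notes the authors used Trim Galore 0.6.10, STAR 2.7.11, HTSeq and DESeq2 with the build mm10; the annotation, the strand setting and any filter are not given in the sources used here. Groups come from the genotype label. Counts were tested with edgeR 4.0.16 in R 4.3.3: filterByExpr with a minimum count of 10, TMM scaling, robust glmQLFit and glmQLFTest with genotype as the only term, Benjamini-Hochberg adjustment over 7792 genes. SEs come from the F statistic. CPM use TMM-scaled totals and are given as mean ± SD. List values per library are mean deviations of log2 CPM with a prior count of 2. The code was tested on simulated data. Named are all tested histone genes, histone genes below the filter with at least 5 counts on average, and, in the histone expression and deposition lists, called genes with Slbp, Npat, Cenpa and Hira. A called gene of the variant deposition list is not reported here. The members and lists were chosen with earlier results of these data known. All 76 symbols matched RefSeq (GRCm38.p6) and a GENCODE M21 gene; for length, the RefSeq span was used under 1000 bases and the GENCODE exon union otherwise. Alternatives were other scalings, filters and thresholds, DESeq2 1.42.0, a replicate block, a sex covariate and each library left out.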

Additional observations from a re-analysis of the deposited data

How the results depend on the processing

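No scaling moved the overall median log2 fold change by more than 0.1. Calls over all genes were 87 with a sex covariate and 59 to 187 when 1 library was left out. Replication-dependent calls (11) were 17 without a count filter, 6 with the sex covariate and 2 to 12 with 1 library left out. The median of these genes was -0.93 with the sex covariate and -0.91 to -0.69 with 1 library left out; that of the variant genes was 0.30 and -0.26 to 0.10. Calls for replication-coupled deposition were 1 to 3 with 1 library left out, and for variant deposition 5 at an adjusted p-value under 0.1 and 1 to 3. S phase calls were 4 both without a filter and where 3 libraries had to reach 1 CPM, 0 with the sex covariate, 1 by DESeq2 and 0 to 5; G2 and mitosis calls were 9 with the sex covariate and 11 to 18. With the sex covariate H1f0 was at 0.48, H1f4 at -0.78, H2bc13 at -0.18 and H4f16 at 0.19. With 1 library left out the ranges were -0.804 to 0.0703 for H1f0, -0.195 to 0.446 for H1f4, -0.0869 to 0.385 for H2bc13, -0.508 to 0.018 for H4f16, -0.958 to 0.00275 for H3c3 and -0.0744 to 0.291 for H3f3a. Hira was at -0.0459 without WT replicate 2, -0.0647 without rsCBE replicate 1 and -0.00598 without rsCBE replicate 2. The causes were not tested. Over the 12 called histone genes and all left-out libraries, 50 calls held and 22 were lost; over the other alternatives, 94 held and 14 were lost.

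Same-numbered libraries did not deviate together (correlations 0.0131, 0.0197 and 0.00908), so the numbers were not taken as pairs. With the replicate block 136 genes and 10 replication-dependent genes were called, 9 of them among the 11; H1f3 (adjusted p = 0.0924, edgeR) and H2ac4 (adjusted p = 0.0628, edgeR) were lost and H1f5 (adjusted p = 0.0141, edgeR) was gained.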
